A study of Mus musculus with 8 samples.

Results

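Expression of 6 genes of C-type lectin domain proteins, Cd93, Clec14a, Thbd, Cd248, Clec1a and Clec2d, was followed in ribosome-bound RNA of mouse lung endothelium. They were taken by symbol from count tables that held 23238 distinct symbols. The set was chosen on values from the same comparison that is described here (CPM, a gene's counts scaled to the library total, in control against Sox17-deleted hypoxic libraries), so its levels and differences are a description with no test. All 6 symbols had counts in at least 1 library, and 5 passed the low-count filter used for testing; Cd248 did not.

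Libraries came from C57BL/6J mice, 4 from controls (Cdh5-CreERT2; RPL22tm1.1Psam) kept in room air and 4 from Cdh5-CreERT2;Sox17fl/fl;RPL22tm1.1Psam mice kept in hypoxia, with room air or hypoxia lasting 3 weeks from 10 weeks of age. Both groups carried the same recombinase and ribosome tag, and tamoxifen was given to both at 8 weeks of age, 2 mg a day for 5 consecutive days. Cdh5-CreERT2 is a tamoxifen-activated recombinase driven by the VE-cadherin promoter. It switches on a haemagglutinin tag on ribosomal protein RPL22 in endothelial cells, so that pulling down the tag enriches their translated transcripts from whole lung, and in floxed mice it also deletes Sox17, a transcription factor of arterial endothelium. Genotype and oxygen differ together between the groups compared, so their parts cannot be told apart. The labels do not say whether libraries are separate animals. The deposited tables of Sox17-deleted hypoxic libraries 2, 3 and 4 carry a shared number in their names, so these 3 may have a source in common, and the spread behind each SD and p-value could be technical in part.

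C-type lectin domains are compact protein folds, first known from calcium-dependent sugar binding, that many family members use to bind proteins instead. Group XIV comprises 4 transmembrane proteins with a lectin domain at the outer end, followed by EGF-like repeats and a mucin-like stalk. CD93 and CLEC14A line endothelium and bind the matrix protein multimerin-2. Thrombomodulin, the product of Thbd, captures thrombin and redirects it from clotting to activation of protein C, while CD248 (endosialin) is known from pericytes and fibroblasts. CLEC1A and CLEC2D belong to another branch, the natural killer receptor-like lectins, anchored in the membrane near their inner end: CLEC1A is found on endothelial and dendritic cells, and CLEC2D (Clr-b) is a widely expressed ligand of an inhibitory natural killer cell receptor.

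The members also differ in gene structure. By GENCODE M21 on GRCm38 (mm10), Clec14a (chromosome 12, 58264720 to 58269290, minus strand), Thbd (chromosome 2, 148404466 to 148408188, minus strand) and Cd248 (chromosome 19, 5068078 to 5070682, plus strand) each have a single exon, and Cd93 (chromosome 2, 148436640 to 148443563, minus strand) has 2. Clec1a (chromosome 6, 129424772 to 129452000, minus strand) has 6 exons and Clec2d (chromosome 6, 129180615 to 129186534, plus strand) has 5. Thbd and Cd93 lie 28451 bases apart on the same strand with no protein-coding gene between them. Clec2d and Clec1a, on opposite strands, are 238237 bases apart, with 6 protein-coding genes in between. No annotated gene overlaps any of the 6, so their counts do not mix with those of an antisense or nested gene of that annotation. Annotated 3′ untranslated regions, where a 3′ tag falls, run from 262 bases in Cd248 to 4606 bases in Cd93.

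The promoter windows of Clec14a, the tested member with the largest difference, and Clec2d, the scarcest tested member, are shown because only these 2 of the 6 symbols matched a window. The other members could not be compared with them. Each window runs from 250 bases before to 50 bases after the RefSeq transcription start in GRCm38.p6. Capitals mark matches, on either strand, to 6 motifs. The SOX core was searched as ACAAT and the ETS motif as AGGAAG. The KLF motif was searched as CACCC and the core of the hypoxia response element as ACGTG. The motif of GATA factors was searched as AGATAA, and the TATA box as TATAAA. No matches overlap each other in these windows. Clec14a is at chr12:58269209-58269508, minus strand, and Clec2d at chr6:129180365-129180664, plus strand.
Clec14a: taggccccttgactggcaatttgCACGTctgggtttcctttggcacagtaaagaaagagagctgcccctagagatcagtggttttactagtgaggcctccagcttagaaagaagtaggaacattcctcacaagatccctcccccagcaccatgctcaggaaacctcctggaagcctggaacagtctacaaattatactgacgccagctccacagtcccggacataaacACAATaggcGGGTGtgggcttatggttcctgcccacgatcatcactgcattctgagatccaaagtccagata
Clec2d: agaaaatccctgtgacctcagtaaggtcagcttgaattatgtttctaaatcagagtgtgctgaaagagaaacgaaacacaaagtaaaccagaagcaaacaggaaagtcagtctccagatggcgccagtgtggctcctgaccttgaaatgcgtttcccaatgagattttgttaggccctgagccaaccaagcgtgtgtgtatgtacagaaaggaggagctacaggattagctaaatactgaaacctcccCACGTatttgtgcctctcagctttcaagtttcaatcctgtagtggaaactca
The Clec14a window held the SOX core at position -22 from the RefSeq start, a KLF match at -13 (as GGGTG, the reverse strand) and a hypoxia response element core at -227 (as CACGT). GENCODE's transcript starts further upstream than RefSeq's, so the SOX and KLF matches lie inside its exon. The Clec2d window held a hypoxia response element core at -2 and none of the others. Of 32851 windows of the same length, 31.0% held the SOX core, 57.5% the KLF letters, 19.6% the hypoxia response element core, 35.4% the ETS, 11.2% the GATA and 13.6% the TATA letters. These matches describe the letters in the window and show no binding.

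Library totals were 10567561 to 11884614 counts in controls and 7000313 to 12913304 in Sox17-deleted hypoxic libraries, where 3 counts correspond to 0.232 to 0.429 CPM; this floor covers counting error only. Genes with at least 10 counts numbered 8319 to 9303 and 6075 to 7242 (exact permutation p = 0.0286, two-sided, the smallest possible with 4 against 4). Sox17-deleted hypoxic library 3 had both the lowest total and the fewest such genes. Sox17 (chromosome 1) was at 235 ± 39.2 CPM in controls and at 36.6, 3.28, 0.857 and 3.67 CPM in Sox17-deleted hypoxic libraries 1 to 4, and the labels do not say whether the deleted part covers the sequenced 3′ end. Markers of all endothelium (20 genes, none of them members) summed to 19491 to 21741 CPM in controls and 12378 to 18712 CPM in Sox17-deleted hypoxic libraries, with no marker at 0 in all controls (exact permutation p = 0.0286; adjusted p = 0.0929 over 13 marker lists). With TMM-scaled library sizes these sums overlapped, at 18892 to 21427 and 11924 to 20766 (exact permutation p = 0.143, adjusted p = 0.464). Alveolar type 2 markers summed to 932 to 1246 and 2035 to 3882 CPM, and club and ciliated cell markers to 1755 to 2663 and 3948 to 6053 CPM (each exact permutation p = 0.0286, adjusted p = 0.0929). Macrophage and monocyte markers summed to 169.5 to 282 and 288 to 537 CPM, with the same exact permutation p and adjusted p. With TMM scaling that exact permutation p was 0.0571 (adjusted p = 0.248). For the alveolar type 2 and the club and ciliated lists it stayed at 0.0286 (adjusted p = 0.186). Alveolar type 1 markers, also epithelial, overlapped per library total, at 1184 to 1480 and 1162 to 1469 CPM (exact permutation p = 0.629, adjusted p = 0.898). In such a pulldown, fewer cells of a type and less RNA per cell cannot be told apart. The part of detection, of endothelial content and of epithelial or macrophage RNA in the differences below was not tested. Levels per endothelial marker count, given below, change the denominator and do not test endothelial content. The markers themselves moved in both directions, 13 of the 20 with a log2 fold change below 0 and 7 above.

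In control lung the group XIV genes spanned the whole range of detection. CPM were compared between genes without division by length, since 3′ end libraries yield roughly a single tag from each transcript, long or short. Cd93 was the most abundant member and ranked 12 among all 23238 symbols by mean control CPM, Thbd ranked 37, Clec14a 181, Clec1a 240, Clec2d 4623 and Cd248 10181. Control ranges of Cd93 and Thbd did not overlap each other or those of the other members. Those of Clec14a and Clec1a did, so their order does not exceed the spread between libraries. In the Sox17-deleted hypoxic libraries the mean ranks were 37 for Cd93, 91 for Thbd, 323 for Clec1a and 723 for Clec14a, and here the ranges of all 4 overlapped with at least 1 neighbour in that order.

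Cd93 had 2784, 4119, 3444 and 3588 CPM in control libraries 1 to 4 and 3184, 1202, 2096 and 1152 CPM in Sox17-deleted hypoxic libraries 1 to 4. The latter libraries 2 to 4 lay below every control, and library 1 lay within the control range, so the groups overlapped. The means were 3484 ± 549 and 1908 ± 954 CPM (SD, n = 4), a ratio of 1.83 in favour of controls. The fitted log2 fold change was -0.83 (SE 0.37).

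Clec14a was the member with the clearest separation. Its level was 584, 701, 746 and 918 CPM in controls and 455, 280, 126 and 192 CPM in Sox17-deleted hypoxic libraries. All 4 of these were below the lowest control, and library 1 was again the highest of its group. The means were 737 ± 138 and 263 ± 142 CPM (SD, n = 4), 2.80 times higher in controls, and the fitted log2 fold change was -1.48 (SE 0.39). Without Sox17-deleted hypoxic library 1 it was -1.88.

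Thbd was the least variable member in controls and, of Cd93, Clec14a and Thbd, the most variable in Sox17-deleted hypoxic libraries. It had 1837, 1801, 1529 and 2114 CPM in controls, a coefficient of variation of 13.2%. In Sox17-deleted hypoxic libraries it had 1918, 1105, 348 and 996 CPM, a coefficient of variation of 59.0%. Library 1 was inside the control range and the other 3 were below it, library 3 by the widest margin. The means were 1820 ± 240 and 1092 ± 644 CPM (SD, n = 4), a ratio of 1.67, with a fitted log2 fold change of -0.74 (SE 0.40). That value was -1.18 without library 1 and -0.46 without library 3, each a change of over 1.5 times.

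**Figure D1:**
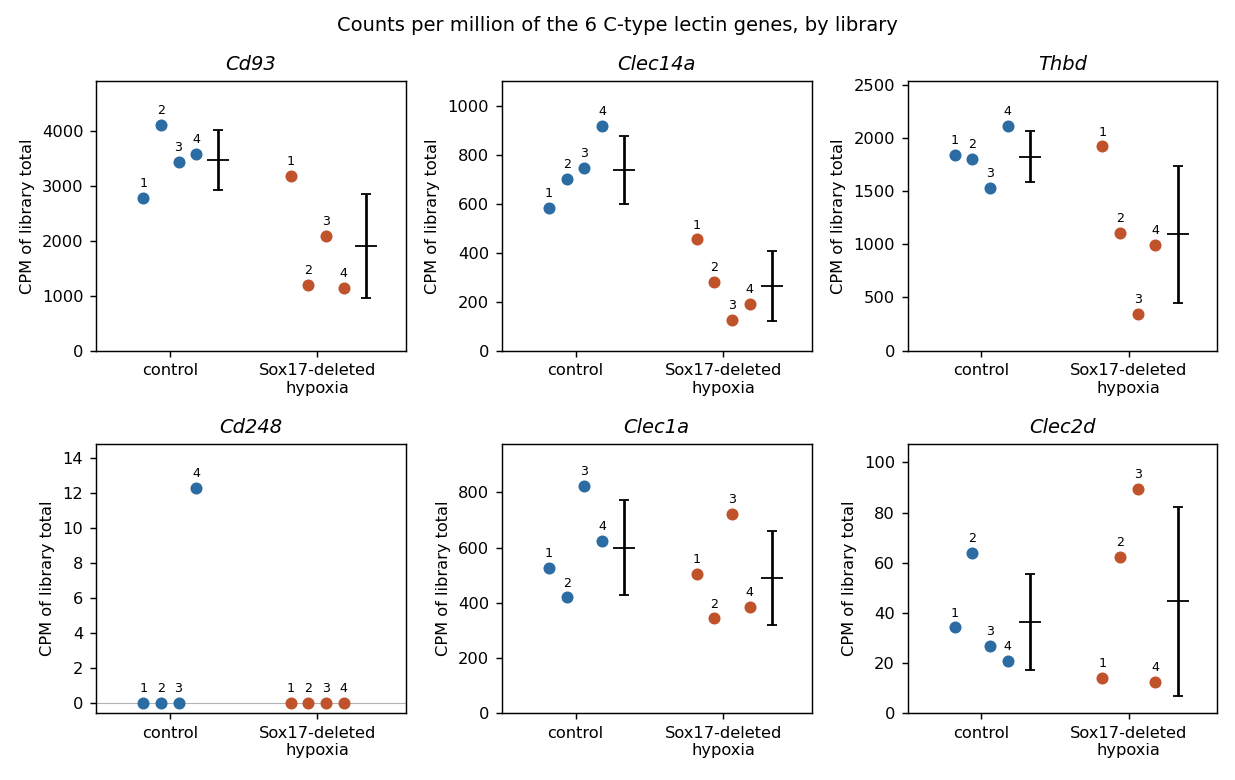
CPM of library total (vertical axis, linear) for each member in 4 control and 4 Sox17-deleted hypoxic libraries; points are libraries, numbered as in the labels, and bars give the mean ± SD (none for Cd248). Clec14a is the member whose groups do not overlap, and Sox17-deleted hypoxic library 1 sits highest in its group for Cd93, Clec14a and Thbd.

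Cd248, the fourth group XIV gene, was nearly absent. It had 146 counts (12.3 CPM) in control library 4 and 0 counts in the other 7 libraries, which by counting error alone allows levels up to 0.232 to 0.429 CPM there. The 10 pericyte markers summed to 54.0 CPM in control library 4, within the control range of 45.7 to 74.1 CPM, and to 0 to 102 CPM in Sox17-deleted hypoxic libraries, with 2 of the 10 at 0 in every control. Of its other known source, 12 fibroblast markers summed to 292 to 509 CPM in controls and 234 to 1085 CPM in Sox17-deleted hypoxic libraries. The part of these cells in the Cd248 counts was not tested.

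Clec1a, the endothelial member outside group XIV, had 527, 420, 823 and 625 CPM in controls and 505, 344, 723 and 386 CPM in Sox17-deleted hypoxic libraries, and the ranges overlapped over most of their length. The means were 599 ± 171 and 489 ± 170 CPM (SD, n = 4), with a fitted log2 fold change of -0.23 (SE 0.36). That value hung on single libraries, at -0.56 without Sox17-deleted hypoxic library 3, -0.03 without library 2 and -0.11 without library 4, and at -0.36 and -0.07 without control libraries 2 and 3. In Sox17-deleted hypoxic library 3, where Thbd and Clec14a were lowest, Clec1a was highest of its group. Clec14a exceeded Clec1a in 3 of 4 controls, at 1.11, 1.67, 0.906 and 1.47 counts per Clec1a count, and in 0 of 4 Sox17-deleted hypoxic libraries, at 0.900, 0.814, 0.174 and 0.497. These ratios do not depend on library size.

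Clec2d was scarce and varied more than it differed. It had 34.3, 63.8, 26.7 and 20.9 CPM in controls and 14.2, 62.2, 89.3 and 12.6 CPM in Sox17-deleted hypoxic libraries. Both the highest and the lowest values came from Sox17-deleted hypoxic libraries, and the groups overlapped throughout. The means were 36.4 ± 19.1 and 44.6 ± 37.7 CPM (SD, n = 4), and the fitted log2 fold change of 0.34 (SE 1.22) changed sign to -0.36 without library 3. Markers of B, T and natural killer cells, which carry CLEC2D, summed to 4.64 to 52.1 CPM in controls and to 0, 44.1, 0 and 72.4 CPM in Sox17-deleted hypoxic libraries 1 to 4. In library 2 both were present, in library 3 Clec2d was highest with these markers at 0, and in library 4 Clec2d was lowest with their sum highest. Gzma alone had 44.1 and 72.0 CPM in libraries 2 and 4, so the sums there were nearly that gene alone. The part of such cells in Clec2d was not tested.

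Over the 5 tested members, 4 had a log2 fold change below 0 (median -0.74), beside 4172 of all 8282 genes tested (50.4%, median -0.01). Of the 5, 0 passed an edgeR adjusted p of 0.05, where 0% of all genes did, and 2 (Cd93 and Clec14a, both lower) had an unadjusted edgeR p under 0.05, where 3.05% of all genes were lower at that level. Groups that did not overlap, with controls higher, were found for 1 member (Clec14a) and for 4.96% of all genes tested. DESeq2 called 1 of the 5 members, Clec14a, and 5.06% of the 9352 genes for which it gave an adjusted p, and limma-voom called 0. Since the members were chosen on this contrast, nothing is read from these counts.

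Relative to endothelial markers, the 4 endothelial members differed less between groups than per library total. Per 1000 counts of the 20 endothelial markers, Clec14a had 36.1 ± 5.66 in controls and 15.5 ± 7.16 in Sox17-deleted hypoxic libraries (SD, n = 4), 2.32 times higher in controls, and the groups (28.6 to 42.2 and 6.75 to 24.3) again did not overlap. Cd93 had 172 ± 31.0 and 111 ± 43.7, a ratio of 1.55. Thbd had 89.2 ± 8.61 and 65.9 ± 35.6, a ratio of 1.35. Clec1a had 29.4 ± 8.60 and 29.0 ± 8.13. Clec2d, higher in Sox17-deleted hypoxic libraries by means, differed more on this scale, at 1.81 ± 1.02 and 2.51 ± 1.95 (log2 ratio 0.47, against 0.29 per library total). The change of denominator moved Sox17-deleted hypoxic library 4 most, since its endothelial sum of 12378 CPM was the lowest of all 8.

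**Figure D2:**
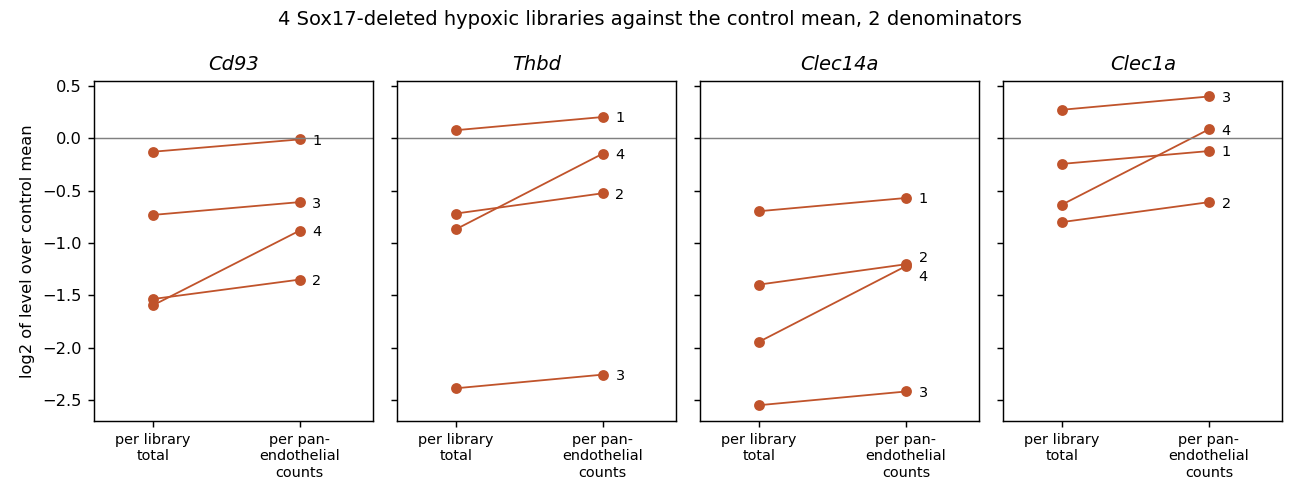
Level of 4 members in each Sox17-deleted hypoxic library over the control mean, on a log2 axis, per library total and per count of 20 endothelial markers; numbers name the libraries and the grey line is the control mean. All 4 Clec14a points stay below the line under both denominators, whereas Clec1a points lie on both sides of it.

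**Figure D3:**
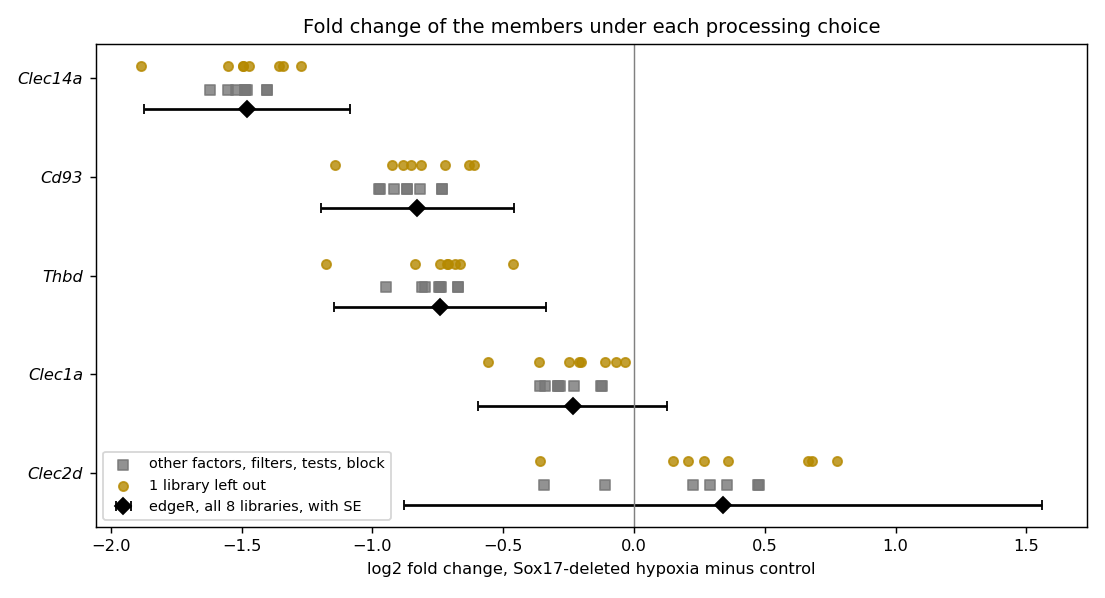
Log2 fold change (Sox17-deleted hypoxia minus control) of the 5 tested members. Black diamonds are the edgeR fit of all 8 libraries with its SE, grey squares other factors, filters, tests and the block, and ochre circles fits with 1 library left out; Clec14a, Cd93, Thbd and Clec1a stay below 0 in all of them and Clec2d does not.

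Nearest profiles were looked up for the 4 members whose mean CPM had a log2 of at least 7, among the 1640 other genes at that level. The distance is the root-mean-square difference, over the 8 libraries, between log2(CPM + 1) values from which each gene's mean was taken off. Nearest to Cd93 was Adgrf5, an adhesion receptor gene of lung endothelium and alveolar epithelium, at 0.14 against a median of 0.93 for all genes, followed by Aldh2 (0.25), the mitochondrial aldehyde dehydrogenase gene, and Kdsr (0.25), a sphingolipid synthesis gene. Nearest to Thbd were Cd200 (0.20), which encodes an immune inhibitory ligand, the transcription factor gene Klf9 (0.22) and the myosin light chain gene Myl12a (0.25), against a median of 0.99. Nearest to Clec14a were Serinc3 (0.21), the fatty acid elongase gene Elovl5 (0.30) and Ndufb5 (0.30), a gene of respiratory complex I, against a median of 1.12. Nearest to Clec1a were Smad7 (0.24), the inhibitory SMAD gene, the plasma membrane calcium pump gene Atp2b1 (0.25) and Ssbp4 (0.26), against a median of 0.75.

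Thbd and Clec14a were the members nearest to each other. Among those 1640 genes Thbd ranked 15 by nearness to Clec14a and Clec14a 45 by nearness to Thbd, while Cd93 ranked 70 and Clec1a 524 by nearness to Clec14a. Thbd, the neighbour of Cd93 on chromosome 2, ranked 416 by nearness to Cd93, at a distance of 0.73. Adgrf5, at 1624 ± 174 and 922 ± 404 CPM, had its lowest values in the same libraries as Cd93, 2 and 4, while Cd200, at 892 ± 139 and 480 ± 251 CPM, was lowest in library 3 as Thbd was. These distances describe 8 libraries and carry no test.

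**Figure D4:**
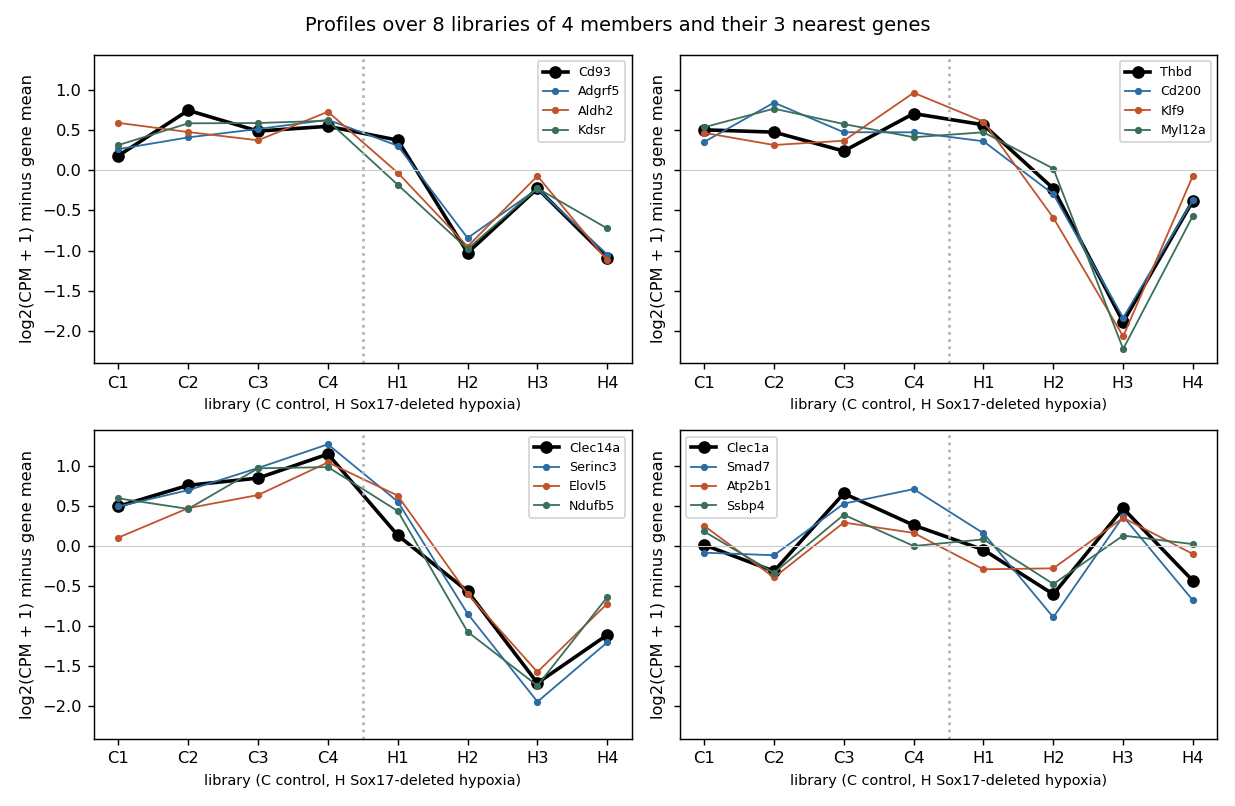
Log2(CPM + 1) minus the gene's mean over the 8 libraries (vertical axis) for 4 members (black) and the 3 genes nearest to each (colours), by library; C is control and H Sox17-deleted hypoxia, and lines only join the points of a gene. Cd93 and its nearest genes dip in H2 and H4, and Thbd, Clec14a and theirs are lowest in H3.

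Genes outside the 6 members were tested in lists of their ligands, pathway and family, 133 genes in all, of which 131 had rows and 40 passed the low-count filter. None of the 40 was called by edgeR, and 4 had an unadjusted edgeR p under 0.05, beside 5.12% of all genes. Their median log2 fold change was 0.08, with 19 of 40 below 0, against -0.01 over all genes. Sox17, the deleted gene, was itself not called by edgeR (log2 fold change -4.39, edgeR adjusted p = 0.346). A gene that this fit did not call is therefore not shown to be unchanged. DESeq2 called 3 of the 131, named with their lists, beside 5.06% of the 9352 genes for which it gave an adjusted p. The 131 include genes with no count in any library, so the bases differ.

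Among 12 ligands and partners of group XIV proteins, 11 were tested, with 4 below 0 and a median log2 fold change of 0.09. Mmrn2, which encodes multimerin-2, the shared ligand of CD93 and CLEC14A, was at 310 ± 71.2 and 263 ± 170 CPM (log2 fold change -0.22, SE 0.44), a value that ran, when a library was left out, from -0.75 (Sox17-deleted hypoxic library 1) to 0.00 (library 2). Igfbp7, which encodes another CD93 ligand, was at 887 ± 148 and 558 ± 462 CPM, and its level ranged from 49.9 CPM (library 3) to 1170.5 CPM (library 1) within the latter group. Its log2 fold change of -0.67 was -1.37 without library 1 and -0.30 without library 3. The moesin gene Msn, whose product links membrane proteins to actin and binds the CD93 tail, was at 831 ± 177 and 1256 ± 497 CPM, and the integrin gene Itgb1 at 611 ± 93.2 and 656 ± 139 CPM. The edgeR adjusted p was 1.00 for Igfbp7, Msn and Itgb1. Cbl, a ubiquitin ligase gene, had 73, 12, 528 and 643 counts in controls and 0 in every Sox17-deleted hypoxic library. Against a floor of 3 counts per library its mean was at least 86.2-fold lower, a bound that covers counting error only. Zeros beside high counts also occurred within a group, as for Clec12b, with 459 counts in control library 3 and 0 in the other controls. The cause was not tested. Cbl was named after its values were seen: DESeq2 called it (adjusted p = 5.57e-05) and edgeR did not (adjusted p = 0.368). Placing Cbl at that bound leaves the list's median where it was.

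Of 15 genes around thrombomodulin, 5 were tested and none had an unadjusted edgeR p under 0.05, with 2 below 0. F2r, the gene of the thrombin receptor PAR1, was at 97.8 ± 15.9 and 185 ± 110 CPM (log2 fold change 0.91, SE 0.57). Pros1, which encodes the protein C cofactor protein S, was at 129 ± 26.4 and 112 ± 76.0 CPM. The edgeR adjusted p was 1.00 for each. In Sox17-deleted hypoxic library 3, which had the lowest total and where Thbd was lowest, they stood at 47.6 and 3.00 CPM, below every other library of that group. Procr, the gene of the endothelial protein C receptor, which works beside thrombomodulin, was too scarce to test, with 137 and 224 counts in control libraries 3 and 4 and 0 in the other 6.

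Of 90 other C-type lectin domain genes with rows, 45 had a count in any library and 10 were tested, 7 of them with a log2 fold change above 0 (median 0.60). The most abundant by mean over all 8 libraries were the lung collectin genes Sftpa1 (224 ± 84.2 and 474 ± 277 CPM) and Sftpd (87.8 ± 15.0 and 351 ± 167 CPM), both products of alveolar type 2 cells and both in that marker list. These 2 genes were higher at an unadjusted edgeR p under 0.05, at 0.0304 and 0.000514, with edgeR adjusted p of 0.825 and 0.337. DESeq2 called Sftpd, as the single gene of the list. The summed alveolar type 2 markers, given above, were higher in the same libraries (exact permutation p = 0.0286, adjusted p = 0.0929). That sum includes Sftpa1 and Sftpd, so it is not independent of them. Of the 10 markers in that list, 8 had a log2 fold change above 0 and 2 below. Clec3b, the tetranectin gene, was next by that mean, at 48.8 ± 18.1 and 81.8 ± 51.5 CPM.

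The neighbours of the natural killer-like members were scarce. In the cluster that holds Clec1a, Clec9a, the gene of a dendritic cell receptor, was the only tested gene of 6, at 77.7 ± 52.0 and 23.2 ± 25.8 CPM (log2 fold change -1.66, SE 1.38, edgeR adjusted p = 1.00). When a library was left out, that value ran from -2.57 (Sox17-deleted hypoxic library 3) to -1.21 (Sox17-deleted hypoxic library 1). It was -3.53 with limma-voom and -3.28 with the replicate block, where the median over all genes was itself -0.71 and -0.57. Clec7a, the dectin-1 gene, had 76.5 CPM in Sox17-deleted hypoxic library 1 and at most 1.29 CPM elsewhere. Of 9 genes for receptors of CLEC2D and for its gene family, 2 had any count (Clec2e and Clec2i) and none was tested. Klrb1b, the gene of the inhibitory receptor that binds CLEC2D, had 0 counts in all 8 libraries and was not detectable at this depth.

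Among 14 transcription factors of endothelium, all tested, 10 had a log2 fold change below 0 (median -0.58), and none was called by edgeR. Klf2, a flow-responsive factor known to act on the Thbd promoter, was at 2620 ± 218 and 1505 ± 847 CPM (-0.80, SE 0.38), Klf4 at 1957 ± 248 and 1694 ± 903 CPM and Gata2 at 874 ± 168 and 829 ± 569 CPM, with edgeR adjusted p of 1.00 each. In Sox17-deleted hypoxic library 3 Klf2 was at 594 CPM and Gata2 at 30.6 CPM, the lowest of their group, while Klf4 was at 2892 CPM, the highest. Foxo1, a factor of endothelial quiescence, was at 281 ± 69.9 and 97.7 ± 43.9 CPM (-1.53, SE 0.48). It was named after its values were seen, with an edgeR adjusted p of 0.386 and a DESeq2 adjusted p of 0.0398.

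**Figure D5:**
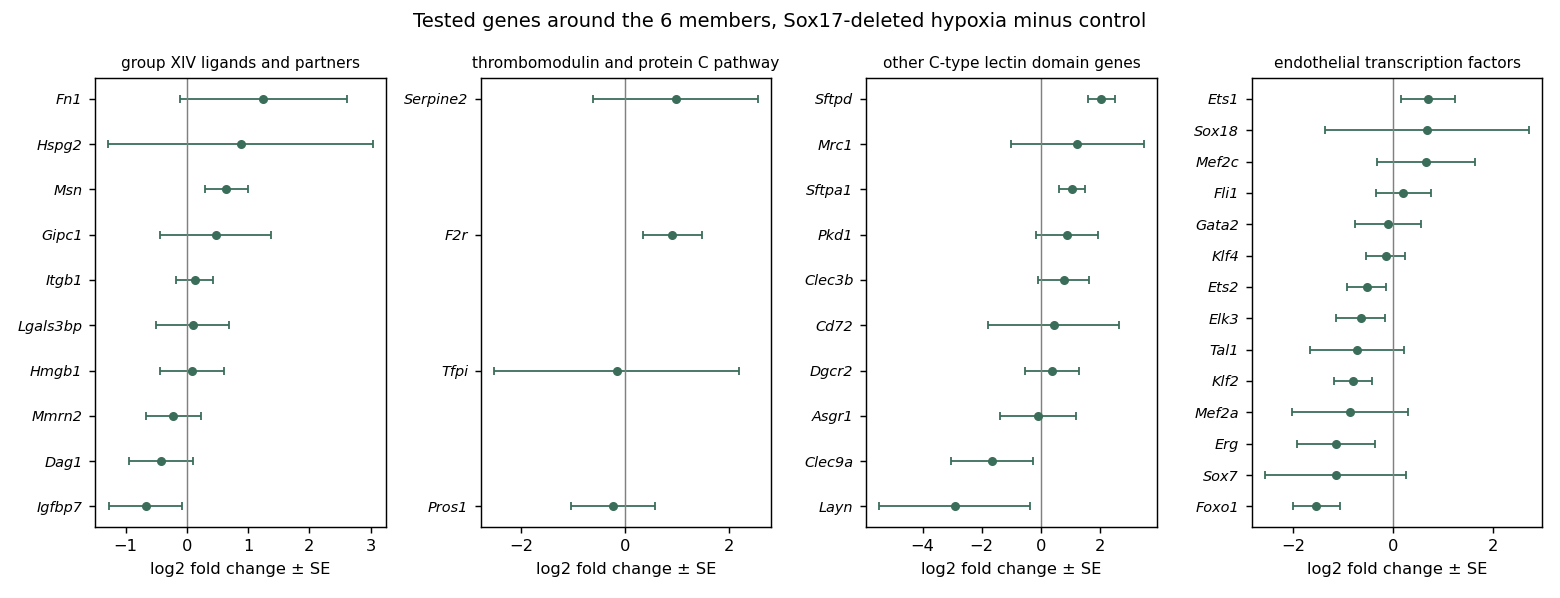
Log2 fold change with SE (horizontal axis; Sox17-deleted hypoxia minus control, edgeR) for tested genes of 4 lists, ordered by value; Cbl, at 0 in every Sox17-deleted hypoxic library, and 1 gene of the thrombomodulin list are not drawn. Mmrn2 and Igfbp7 have log2 fold changes of -0.22 and -0.67 with SEs of 0.44 and 0.59, and Sftpd and Foxo1 stand at 2.05 and -1.53.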

How the data were processed

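Ribosome-associated RNA from lung endothelium was sequenced in 8 libraries, 4 per group, grouped by their titles. Tagged ribosomes were pulled down from lung, and a QuantSeq 3′ kit was used for the libraries, per the labels' protocols. The deposited values are counts per gene symbol, not normalized. Bowtie2, bedtools and mm10 are named without version or settings, per the submitters' processing notes; the handling of strand, duplicates and reads with several matches, which can change counts of similar genes, was not given in the sources used here. Rows repeating a symbol (44) were summed. Levels are CPM of library total. Differences were fitted in R 4.3.3 with edgeR 4.0.16 (TMM factors, filterByExpr, quasi-likelihood F test, group alone) over 8282 genes, with Benjamini-Hochberg adjustment and a threshold of 0.05. The SE is the log2 fold change divided by the square root of F. Sums per library were compared by two-sided exact permutation tests. The code of the fit was checked on counts simulated with the same dispersion for all genes and both groups. That setting was not matched to the spread of these libraries. It does not measure how often a real difference would be called here.

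The members and lists were chosen with earlier results of these data known. Named genes were the members, Sox17, the 3 most abundant genes and any called gene of each list, and the 3 nearest profiles of members whose mean CPM had a log2 of at least 7. Mmrn2, Procr, Cbl, Foxo1 and Klrb1b fall outside this rule and were named after their values were seen. A gene of the thrombomodulin list that the rule names is not reported here. Alternatives were RLE and upper-quartile factors, library totals, no filter, a filter at that same level, DESeq2 1.42.0, limma-voom (limma 3.58.1), the replicate number as a block, and leaving out each library. Gene positions come from GENCODE M21 and promoter windows from RefSeq on GRCm38.p6.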

Additional observations from a re-analysis of the deposited data

Results flagged for a closer look

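In each group of 4 libraries, a value's gap to the nearest other was taken as a share of the group's range. It was singled out when this share exceeded Dixon's 95% critical value, which chance does in about 1 of 20 groups of normally distributed values. Groups with 0 in 3 libraries and a count in the other pass by construction, some of them on 1 or 2 counts. Of 165 groups examined, 28 values were singled out, a number that cannot be set against that rate. Among the members this was Cd248 in control library 4, at 12.3 CPM beside 0 in the other 3. Sox17 stood at 36.6 CPM in Sox17-deleted hypoxic library 1, the library with the highest Cd93, Clec14a and Thbd of its group. Library 3, with the lowest Sox17 (0.857 CPM), had the lowest Clec14a and Thbd of that group but not the lowest Cd93. Library 1 also had the highest total of all libraries and library 3 the lowest. Genes outside the members, such as Gata2 and Igfbp7, were likewise highest in library 1 and lowest in library 3 of that group. Others, such as Klf4 and the endothelial marker gene Egfl7, were highest in library 3. Whether the levels of Sox17 and of the members go together was not tested.

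Control library 4 had 169 CPM of Pros1, 1586 CPM of Klf4 and 68.1 CPM of the smooth muscle myosin gene Myh11, and control library 1 had 403 CPM of Kdsr. In the Sox17-deleted hypoxic group, library 4 had the lowest endothelial marker sum, at 12378 CPM, library 3 had 1314 CPM of the ciliated cell gene Tppp3, and library 2 had 484 CPM of Hbb-bs.

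Lectin genes singled out were Clec7a (1.29 CPM in control library 3 and 76.5 CPM in Sox17-deleted hypoxic library 1), Clec12b (39.4 CPM in control library 3 and 13.8 CPM in Sox17-deleted hypoxic library 4) and Clec2e (0.212 CPM in Sox17-deleted hypoxic library 2). Of pericyte and mesothelial genes these were Pdgfrb (11.9 CPM in control library 3), Trpc6 (32.7 CPM in control library 1 and 57.6 CPM in Sox17-deleted hypoxic library 4), Rgs5 (32.6 CPM) and Msln (30.1 CPM, the whole mesothelial sum), both in Sox17-deleted hypoxic library 3. Of blood cell genes these were Ppbp (5.87 CPM) and Cd79b (27.5 CPM) in control library 1, Pf4 (0.0859 CPM in control library 3 and 5.86 CPM in Sox17-deleted hypoxic library 3), Mmp8 (10.1 CPM in Sox17-deleted hypoxic library 2) and Ptprc (0.0896 CPM in Sox17-deleted hypoxic library 4). Platelet markers summed to 12.6 CPM in control library 1 and 6.57 CPM in Sox17-deleted hypoxic library 3.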

How the results depend on the processing

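Over 16 alternatives the log2 fold change ran from -1.88 to -1.27 for Clec14a, from -1.14 to -0.61 for Cd93, from -1.18 to -0.46 for Thbd and from -0.56 to -0.03 for Clec1a, below 0 in each. For Clec2d it ran from -0.36 to 0.78 over 15, and was -0.34 with limma-voom and -0.11 with the replicate block; leaving out a library gave -0.36 to 0.78. The median over all genes was itself -0.71 with limma-voom and -0.57 with the block, against -0.01; the cause was not tested. Other scalings moved that median by under 0.1 and moved the count of genes below 0 in a list by at most 1. The edgeR count of called members was 0 under every alternative except DESeq2, which called 1, and DESeq2 called 3 partner and family genes where edgeR called 0. Over all genes, 0 calls became 17 without a filter, 4 with the stricter filter at a log2 mean CPM of 7, where fewer genes were tested, 473 with DESeq2, 44 with limma-voom, and 0 to 5 when a library was left out, the 5 without Sox17-deleted hypoxic library 1. With the replicate block 0 genes were called. Libraries with the same number did not deviate together (r = 0.01, 0.02, -0.02 and 0.02 for numbers 1 to 4), so the numbers were not taken to pair them. Of 831 values for 53 other named genes, 816 stayed on their side of the threshold, 15 (for 7 genes, Sox17, Sftpc, Sftpd, Ager, Scgb1a1, Aldh2 and Serinc3) passed it, and 0 passed it in the opposite direction. Values that stayed could still change sign. The log2 fold change ran from -0.58 to 0.31 for Gata2 and from -0.61 to 0.14 for Klf4, while that of Msn ran from 0.27 to 0.85. Cd248 and Procr were at 0 in most libraries, control libraries of similar total included; the cause was not tested.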
